A study of Homo sapiens with 6 samples.

Results

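The ATF4 amino acid response targets described here are 10 genes (ASNS, CHAC1, TRIB3, PSAT1, PHGDH, SLC7A11, SLC7A5, SLC3A2, SESN2 and DDIT4), taken by name, with every array probe whose platform symbol is 1 of them. They are read by 13 of the 48803 probes on the array, and all 10 genes had a probe, out of 18849 genes with a named probe. The cells were SKOV3ip1, a line derived from the human ovarian carcinoma line SKOV3, with 3 arrays of cells given an siRNA against STAT3 (siSTAT3) and 3 arrays of cells given a control siRNA (siCon). STAT3 is a transcription factor switched on by cytokine and growth factor receptors, and the comparison asks which transcripts depend on it. The labels give no siRNA sequence, dose or time after transfection, both groups are 1 cell line, and nothing says that the arrays came from separate cultures. The p-values therefore cover the spread among these 6 arrays alone, and that spread may be technical.

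ATF4 is a basic leucine zipper transcription factor whose mRNA is translated more when eIF2 alpha is phosphorylated, as happens when amino acids run short, when unfolded protein collects in the endoplasmic reticulum, or during other stresses. With C/EBP family partners it binds C/EBP-ATF composite elements and turns on genes that make amino acids, import them, charge tRNAs and restrain growth until supply is restored. Because this control acts largely on translation of ATF4 mRNA, the level of its target transcripts is commonly used to read its activity. Many of these targets also answer to other factors, so a change in 1 of them is not specific to ATF4.

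The promoters of ASNS and CHAC1 are shown because they carry the letters of the element that ATF4 is known to bind, that of SLC3A2 because it carries both motifs searched, and that of DDIT4 because this gene had the largest difference between the groups when each gene is read by its brightest probe. The sequences are RefSeq windows on GRCh38.p14 from 250 bases before to 50 bases after an annotated start, in lower case with matches to either motif in capitals. The ASNS window is chr7:97872359-97872658 on the minus strand, the CHAC1 window chr15:40953221-40953520 on the plus strand, the SLC3A2 window chr11:62881449-62881748 on the plus strand and the DDIT4 window chr10:72273674-72273973 on the plus strand.
ASNS: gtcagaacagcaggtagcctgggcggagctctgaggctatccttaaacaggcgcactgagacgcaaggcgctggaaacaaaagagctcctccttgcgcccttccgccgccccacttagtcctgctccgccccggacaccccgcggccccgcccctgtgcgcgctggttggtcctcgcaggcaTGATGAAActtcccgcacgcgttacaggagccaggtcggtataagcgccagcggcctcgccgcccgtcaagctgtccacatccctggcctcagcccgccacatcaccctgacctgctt
CHAC1: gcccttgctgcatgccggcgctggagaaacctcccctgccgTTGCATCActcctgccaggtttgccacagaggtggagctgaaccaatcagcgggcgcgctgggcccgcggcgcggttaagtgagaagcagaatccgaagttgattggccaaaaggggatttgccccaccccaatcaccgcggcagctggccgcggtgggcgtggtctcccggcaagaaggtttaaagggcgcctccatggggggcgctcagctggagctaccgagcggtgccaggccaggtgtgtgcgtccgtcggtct
SLC3A2: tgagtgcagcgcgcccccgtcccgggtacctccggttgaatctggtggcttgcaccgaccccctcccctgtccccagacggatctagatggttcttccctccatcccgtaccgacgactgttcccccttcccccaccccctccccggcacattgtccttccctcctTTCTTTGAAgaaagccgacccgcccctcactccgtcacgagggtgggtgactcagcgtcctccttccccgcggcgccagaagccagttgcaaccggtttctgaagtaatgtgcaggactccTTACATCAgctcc
DDIT4: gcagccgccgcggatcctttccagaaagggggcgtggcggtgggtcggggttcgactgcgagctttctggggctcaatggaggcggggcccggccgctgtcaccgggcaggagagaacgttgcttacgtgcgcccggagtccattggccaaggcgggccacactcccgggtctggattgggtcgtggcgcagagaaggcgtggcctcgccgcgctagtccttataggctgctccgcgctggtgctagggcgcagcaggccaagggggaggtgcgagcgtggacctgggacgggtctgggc
The motifs were TGATGNAA, the core of the C/EBP-ATF element, and TTCNNNGAA, the palindrome that STAT dimers are known to bind, each searched on both strands, with no overlap between the matches shown. In ASNS the capitals TGATGAAA begin 68 bases before the start, and in CHAC1 the capitals TTGCATCA, the element read on the other strand, begin 209 bases before it. In SLC3A2 the capitals TTACATCA, again on the other strand, begin 37 bases after the first base of the transcript, and TTCTTTGAA begins 84 bases before the start. Another annotated SLC3A2 start had a further STAT palindrome. Windows were found for 9 of the 10 genes, all but SLC7A11. TGATGNAA was present in 3 of these 9 (ASNS, CHAC1 and SLC3A2) and in 4.46% of 27305 genes with a window. TTCNNNGAA was present in 1 of the 9 (SLC3A2) and in 9.38% of the genes. These are matches of letters within short windows, and the windows of the other members hold neither set of letters, DDIT4 included.

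Expression was read as fluorescence intensity of bead probes, and levels are given as intensity after quantile normalisation, which gives every array 1 common distribution. The median intensity over all probes was then 94.8 on each array, so a probe near that level sits close to background. Median unnormalised intensity was 93.6, 97.1 and 93.5 on the siSTAT3 arrays and 95.9, 95.6 and 93.0 on the siCon arrays. On the first principal component siCon replicate 3 stood apart, at -23.8, while the siSTAT3 arrays lay at 7.34 to 9.77 and the remaining siCon arrays at -1.18 and 0.42, and members whose values rest on that array are given with and without it. STAT3 itself had an intensity of 589, 549 and 667 on the siSTAT3 arrays and 2778, 2241 and 2544 on the siCon arrays, and 23.9% to 32.3% of the control level remained on its 3 probes. Of the 10 ovarian carcinoma and epithelial markers checked, 7 (ERBB2, EPCAM, KRT8, KRT19, PAX8, MSLN and FOLR1) lay above 5 times the median intensity, while WT1 and MUC16 lay near it. No endothelial or fibroblast marker lay above that mark, and CD68 was the 1 leukocyte marker that did, with PTPRC, CD3E and ITGAM near the median. Of the 10 carcinoma markers 1 fell by the test used below and 0 rose, where 1.46% of all tested genes were called. The marker that fell was KRT8, with a mean intensity of 969.8 in siSTAT3 and 1395 in siCon. At an unadjusted p under 0.05, 3 markers were lower and 0 higher (median log2 change -0.11), where 12.1% of all tested genes had such a p. FOLR1 averaged 427 in siSTAT3 and 622 in siCon, and MSLN 1047 in siSTAT3 and 1392 in siCon. The summed intensity of the 10, to which ERBB2 gave the most, was 15143 to 16797 on siSTAT3 arrays and 15706 to 17184 on siCon arrays. The part of these markers in the results on the ATF4 targets was not tested.

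None of the 10 genes passed the threshold of an adjusted p under 0.05 by limma, the test used across all genes. DDIT4, an inhibitor of mTORC1 signalling, came closest, at 1.49 times the control level. ASNS and PHGDH, enzymes that make asparagine and serine, lay higher on all 3 siSTAT3 arrays than on all 3 siCon arrays, at 1.28 and 1.32 times the control level. SLC7A11, the cystine importer, lay lower on all 3 siSTAT3 arrays, at 0.761 times the control level. TRIB3, PSAT1, SLC7A5 and SLC3A2 had differences near 0 on their brightest probes, and CHAC1 and SESN2 were too dim to be tested.

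Of the 10 genes, 8 passed the filter on dim probes, and 0 of these 8 were called, where 1.46% of 14145 tested genes were called (0.396% higher and 1.07% lower). At an unadjusted p under 0.05 there were 4 of the 8, 3 higher and 1 lower, where 12.1% of all tested genes had such a p. The groups did not overlap for the same 4 genes (DDIT4, ASNS, PHGDH and SLC7A11), 3 higher and 1 lower, where 17.2% of all tested genes had groups that did not overlap (8.63% higher and 8.56% lower). The median log2 change of siSTAT3 over siCon was 0.06 over the 8 genes and 0.01 over all tested genes. The members therefore spread to both sides around a median near that of all genes, from -0.39 for SLC7A11 to 0.57 for DDIT4.

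**Figure D1:**
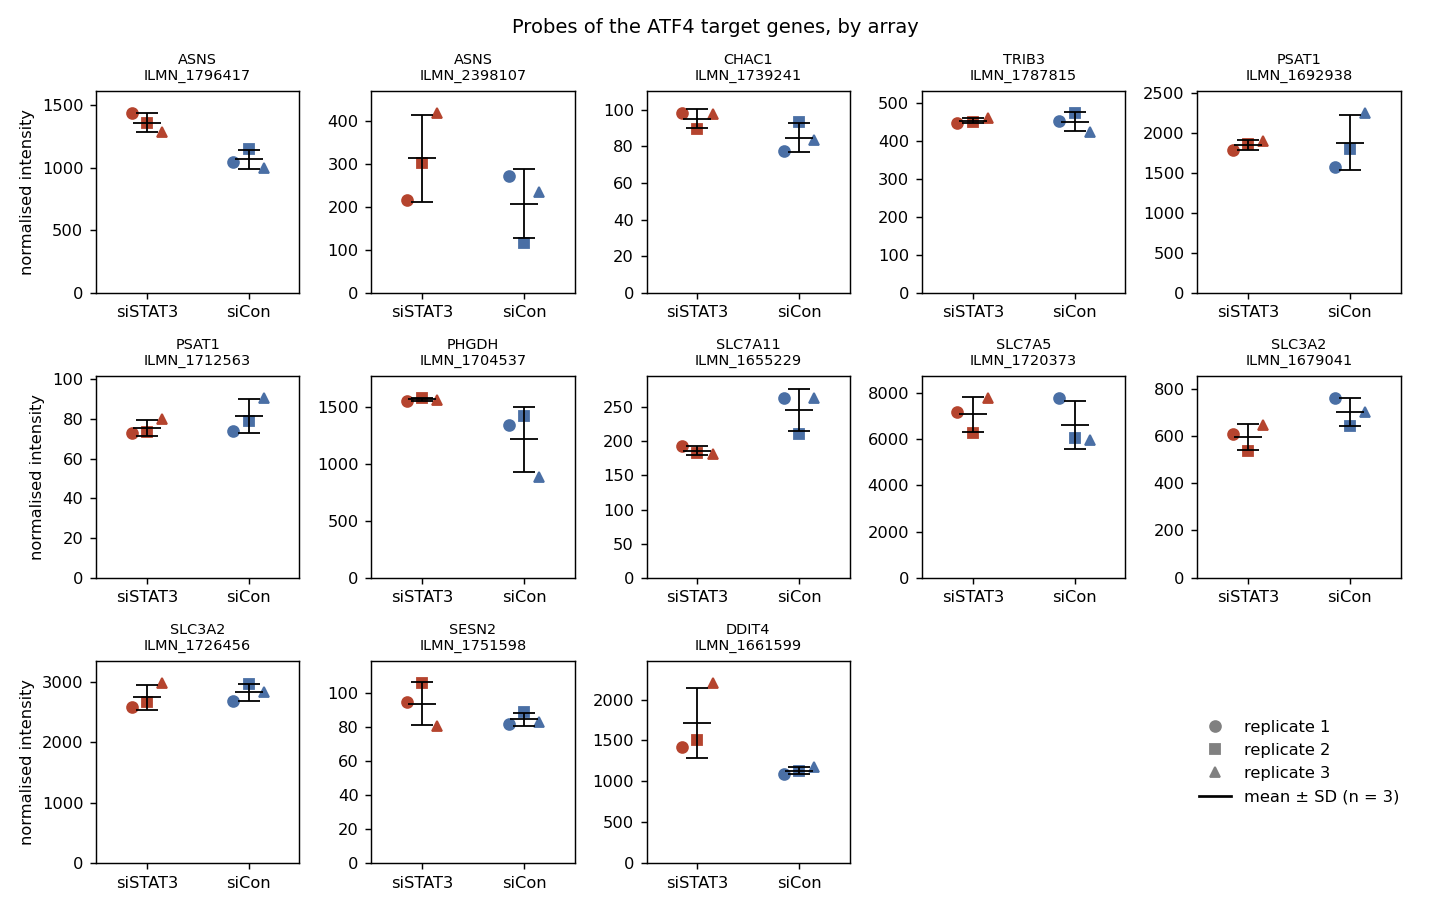
Normalised intensity (y axis, linear, from 0) of each of the 13 probes on the 3 siSTAT3 arrays and the 3 siCon arrays, with the mean and SD (n = 3) in black. DDIT4, ASNS on its brighter probe and PHGDH lie higher on every siSTAT3 array, SLC7A11 lies lower on every siSTAT3 array, and the groups overlap on the other 9 probes.

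Among the enzymes that make amino acids, ASNS converts aspartate to asparagine and is a textbook target of the amino acid response. Its brighter probe, ILMN_1796417, had an intensity of 1443, 1356 and 1289 on siSTAT3 replicates 1 to 3, against 1048, 1151 and 1001 on siCon replicates 1 to 3. The lowest siSTAT3 array thus lay above the highest siCon array, and each group varied little. The log2 change was 0.35 ± 0.11 (SE), with an adjusted p of 0.134 by limma and a 95% interval of 0.13 to 0.58. The dimmer ASNS probe, ILMN_2398107, had an intensity of 216, 302 and 420 on siSTAT3 arrays and 272, 117 and 234 on siCon arrays. Its groups overlapped, with siSTAT3 replicate 1 below siCon replicates 1 and 3, and siCon replicate 2 lay lowest of all 6. Its log2 change was 0.63 ± 0.24 (SE), the same sign as on the brighter probe, with an adjusted p of 0.398 by limma over 29282 probes, of which 0.874% were called. With a gene's probes averaged, ASNS gave 0.49 and an adjusted p of 0.14 by limma.

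PHGDH and PSAT1 catalyse consecutive steps of serine synthesis from a glycolytic intermediate. PHGDH, the entry step, had an intensity of 1553, 1578 and 1557 on siSTAT3 arrays, against 1335, 1418 and 881 on siCon arrays. The siSTAT3 arrays were nearly equal, and the spread came from siCon replicate 3, the array that stood apart. The log2 change of PHGDH was 0.40 ± 0.15 (SE), with an adjusted p of 0.272 by limma, and without siCon replicate 3 it was 0.18, with an adjusted p of 0.445. PSAT1, the transaminase of the next step, had an intensity of 1785, 1863 and 1899 on siSTAT3 arrays and 1576, 1799 and 2254 on siCon arrays on probe ILMN_1692938. The siCon values enclosed all siSTAT3 values, and siCon replicate 3, lowest for PHGDH, was highest for PSAT1. The log2 change of PSAT1 was -0.01 ± 0.13 (SE) with a 95% interval of -0.27 to 0.26 and an adjusted p of 0.995 by limma, and without siCon replicate 3 it was 0.13. The other PSAT1 probe, ILMN_1712563, had an intensity of 72.8 to 79.9 on siSTAT3 arrays and 74.1 to 90.7 on siCon arrays, below the filter.

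The transporters among the members work as pairs, since SLC3A2 (the 4F2 heavy chain) carries the light chains SLC7A5 (LAT1, which exchanges large neutral amino acids) and SLC7A11 (xCT, which imports cystine in exchange for glutamate) to the plasma membrane. SLC7A11 had an intensity of 194, 183 and 181 on siSTAT3 arrays, against 264, 210 and 263 on siCon arrays. Every siSTAT3 array lay below every siCon array, and siCon replicate 2 lay nearest to the siSTAT3 arrays. The log2 change was -0.39 ± 0.11 (SE), with an adjusted p of 0.123 by limma. Without siCon replicate 2 the log2 change of SLC7A11 was -0.50, with an adjusted p of 0.0392 by limma, in a fit that called 209 genes. With any other array left out it was -0.34 to -0.42, with adjusted p-values of 0.134 to 0.394 by limma. With its 6 values between 181 and 264, SLC7A11 lay not far above the median of all probes, and no background was subtracted, so any background that remains shrinks its fold.

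SLC7A5 was measured at an intensity of 7174, 6282 and 7777 on siSTAT3 arrays and 7800, 6059.6 and 5947 on siCon arrays. The highest and the lowest arrays were both siCon arrays, and the groups overlapped. Its log2 change was 0.11 ± 0.13 (SE), with a 95% interval of -0.16 to 0.38 and an adjusted p of 0.824 by limma. The brighter probe of SLC3A2, ILMN_1726456, had an intensity of 2590, 2661 and 2985 on siSTAT3 arrays and 2676, 2960 and 2838 on siCon arrays, with overlapping groups. Its log2 change was -0.04 ± 0.11 (SE), with a 95% interval of -0.27 to 0.18. The dimmer SLC3A2 probe, ILMN_1679041, had an intensity of 607, 537 and 645 on siSTAT3 arrays and 762, 641 and 701 on siCon arrays. On that probe siSTAT3 replicate 3 lay just above siCon replicate 2, and the log2 change was -0.23 with an adjusted p of 0.473 by limma over all tested probes. The SLC3A2 probes thus differed in size of change, and the dimmer one lay highest on siCon replicate 1, as did both SLC7A11 and SLC7A5. The difference between SLC7A11 and the other transporters was not tested.

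DDIT4 (REDD1) and SESN2 both restrain mTORC1, the kinase complex that couples amino acid supply to protein synthesis, DDIT4 through the TSC1-TSC2 complex and SESN2 as a leucine-sensitive inhibitor of GATOR2. DDIT4 had an intensity of 1419, 1507 and 2206 on siSTAT3 arrays, against 1086, 1123 and 1173 on siCon arrays. The siCon arrays lay close together, all siSTAT3 arrays lay above them, and siSTAT3 replicate 3 was far above the other two. The group means were 1711 ± 431 in siSTAT3 and 1127 ± 44.0 in siCon (SD, n = 3 each). The log2 change was 0.57 ± 0.14 (SE), with an adjusted p of 0.0633 by limma and a 95% interval of 0.27 to 0.88. Over the tested genes, 29 (0.205%) had a log2 change at least this high, DDIT4 included. Without siSTAT3 replicate 3 the log2 change of DDIT4 was 0.38, with an adjusted p of 0.297. Without siCon replicate 3 it was 0.60, with an adjusted p of 0.025 by limma, in a fit where 2.88% of the tested genes were called (1.07% higher). DDIT4 also passed with array weights (0.0142) and with median scaling in place of quantile normalisation (0.0404). SESN2 was read near background, at an intensity of 94.8, 106 and 81.0 on siSTAT3 arrays and 81.9, 89.3 and 83.2 on siCon arrays. Both ends of the siSTAT3 range enclosed the siCon values, and the probe was below the filter.

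TRIB3 is a pseudokinase that is induced by ATF4 and its partner DDIT3 and is known to dampen their activity. It had an intensity of 448, 451 and 461 on siSTAT3 arrays and 453, 475 and 425 on siCon arrays. The siCon values enclosed those of siSTAT3, and the log2 change was 0.01 ± 0.10 (SE), with a 95% interval of -0.21 to 0.22 and an adjusted p of 0.991 by limma. CHAC1, which breaks down glutathione, had an intensity of 98.5, 89.4 and 97.6 on siSTAT3 arrays and 77.5, 93.1 and 83.4 on siCon arrays. Of the siSTAT3 arrays, 1 lay within the siCon range, and all 6 values were near background. The mean intensities of CHAC1 (89.6) and SESN2 (88.98) fell just under the filter of 89.9, and without a filter their log2 changes were 0.17 and 0.14, with adjusted p-values of 0.732 and 0.834 by limma over all probes.

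**Figure D2:**
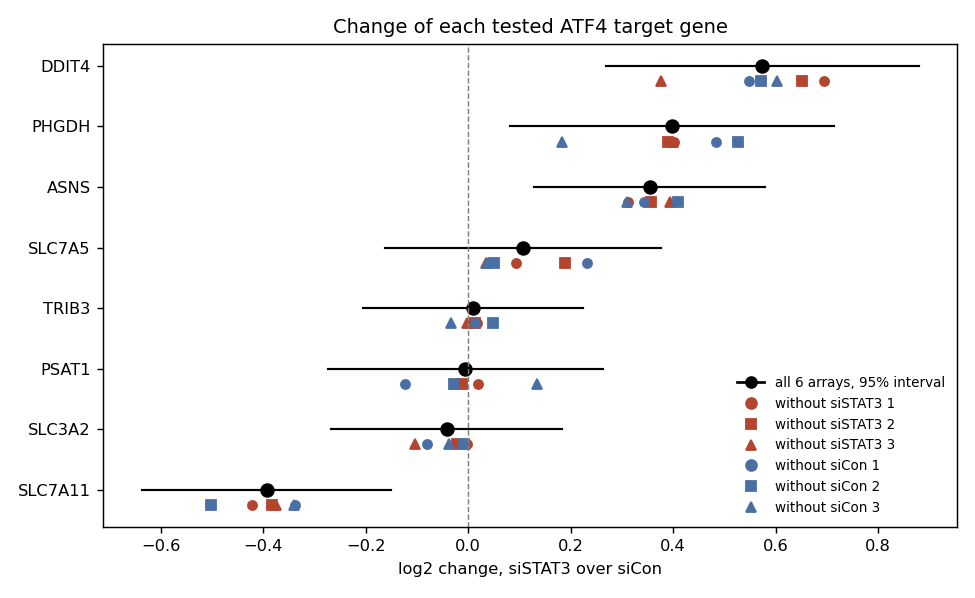
Log2 change of siSTAT3 over siCon (x axis) for each of the 8 tested genes, with the 95% interval in black and, under each, the change with 1 array left out. The change of DDIT4 drops to 0.38 without siSTAT3 replicate 3 and that of PHGDH to 0.18 without siCon replicate 3. That of TRIB3 stays near 0, and that of PSAT1 ranges from -0.12 to 0.13.

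**Figure D3:**
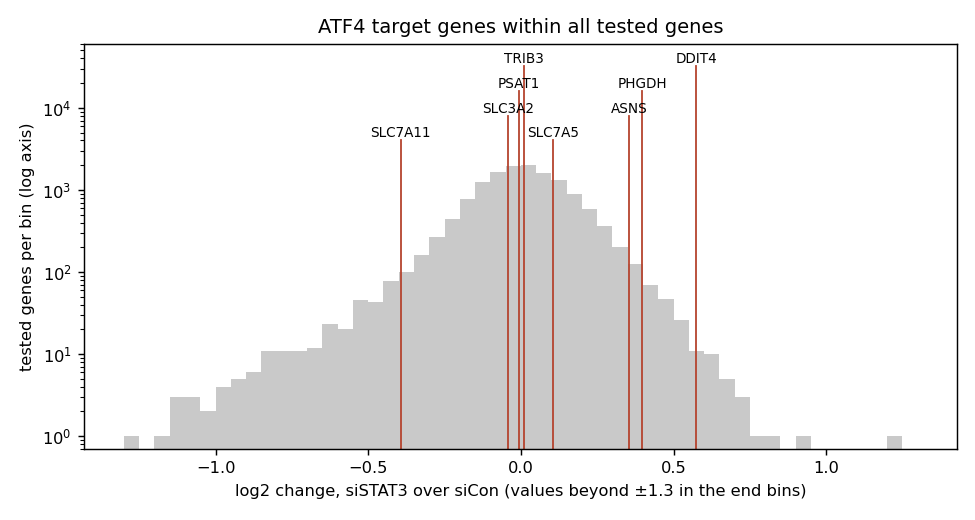
Number of tested genes (y axis, log scale) by log2 change of siSTAT3 over siCon (x axis, bins of 0.05), with a red line at each tested ATF4 target gene. DDIT4, PHGDH and ASNS lie in the upper tail, DDIT4 furthest out, and SLC7A11 lies in the lower tail. TRIB3, PSAT1, SLC3A2 and SLC7A5 lie in the centre.

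None of the regulators above these targets passed the threshold. ATF4 transcript, on its brightest probe ILMN_1672128, had an intensity of 14158, 13277 and 13233 on siSTAT3 arrays and 11830, 12868 and 12902 on siCon arrays. The groups did not overlap but lay close, and the log2 change was 0.11 ± 0.10 (SE), with an adjusted p of 0.754 by limma. The other ATF4 probes gave 0.02 and -0.01. DDIT3 (CHOP), a stress-induced partner of ATF4, had an intensity of 340, 389 and 309 on siSTAT3 arrays and 369, 479 and 275 on siCon arrays, which overlapped, and a log2 change of -0.08. Of the 12 genes of ATF4 and its leucine zipper partners, 0 passed in either direction by limma (median log2 change -0.07). At an unadjusted p under 0.05, 2 were lower and 0 higher, where 12.1% of all tested genes had such a p. ATF3, a stress-induced repressor, had an intensity of 324, 283 and 315 on siSTAT3 arrays and 378, 425 and 372 on siCon arrays. That gave a log2 change of -0.35 with an adjusted p of 0.147 by limma. Its other probes, near background, gave -0.14 and -0.01, and ATF3 with its probes averaged gave -0.24 (adjusted p = 0.311 by limma). CEBPB, a C/EBP partner of ATF4, gave -0.25, JDP2 -0.20 and ATF5 0.19, each with an adjusted p of 0.374 or more. Without siCon replicate 3, CEBPB gave -0.32, JDP2 -0.16 and ATF5 0.098. The list of kinases and phosphatase subunits that set eIF2 phosphorylation, with eIF2 alpha and eIF2B subunits (11 tested), had 0 genes past the threshold. It had 0 at an unadjusted p under 0.05, where 12.1% of all tested genes had such a p, and a median of -0.06. The smallest p-values of the list were those of EIF2AK2 (PKR, 0.18), PPP1R15B (-0.23), EIF2S1 (eIF2 alpha itself, -0.16) and EIF2B2 (0.14). Single arrays moved these values, PPP1R15B giving -0.066 without siCon replicate 1. EIF2S1 gave -0.063 without siSTAT3 replicate 2 and -0.25 without siSTAT3 replicate 1. EIF2B2 gave 0.084 without siSTAT3 replicate 2 and 0.078 without siCon replicate 3.

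Further ATF4 targets and neighbouring pathways were taken from lists of 127 genes, of which 113 were tested. Among these, 0 rose and 1 fell, where 1.46% of all tested genes were called and 1.07% fell, so the share called was no higher than over all genes. The gene that fell was the cystathionine gamma-lyase CTH, which makes cysteine from cystathionine. CTH had an intensity of 251, 208 and 213 on siSTAT3 arrays, against 315, 336 and 323 on siCon arrays, on probe ILMN_2305112. Each siSTAT3 array was below each siCon array, and the log2 change was -0.54 ± 0.11 (SE), with an adjusted p of 0.0204 by limma. Its other probes, nearer to background, gave -0.30 and 0.13. The call of CTH was lost with its probes averaged (-0.24, adjusted p = 0.329 by limma), with median scaling (0.0564), and without siSTAT3 replicate 2 (0.14), siSTAT3 replicate 3 (0.149), siCon replicate 1 (0.0541) or siCon replicate 2 (0.0511).

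CTH stands in the list of other ATF4 targets, where it was 1 of 13 tested, and in the list of glutathione and cysteine enzymes, where it was also 1 of 13. Each of these lists had a median of 0.07. In the first, STC2 gave 0.15, EIF4EBP1 (a translation repressor that mTORC1 inactivates) 0.19 and TRIB1 -0.22. Without siCon replicate 3, STC2 gave 0.12, EIF4EBP1 0.083 and TRIB1 -0.20. In the second, CBS, the enzyme that makes cystathionine for CTH, had an intensity of 719, 605 and 633 on siSTAT3 arrays and 457, 590 and 542 on siCon arrays. The groups lay apart for CBS, with a log2 change of 0.30 and an adjusted p of 0.303 by limma. GCLM, a subunit of the enzyme that starts glutathione synthesis, gave 0.19, and GGCT gave 0.15. Their dimmer probes gave 0.05 for GCLM and 0.07 for GGCT, with overlapping groups. In the list of glutathione and cysteine enzymes, 0 rose and 1, CTH, fell. With each gene read by its brightest probe, the groups lay apart for 4 higher and 1 lower of the 13 genes. Over all tested genes the groups lay apart for 8.63% higher and 8.56% lower. Over the 113 tested genes of all the related lists, 12 lay apart higher and 8 lower.

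Of the serine, glycine and one-carbon enzymes beyond PHGDH and PSAT1 (10 tested, median -0.03), 0 passed by limma. At an unadjusted p under 0.05, 1 was higher and 1 lower, where 12.1% of all tested genes had such a p. PSPH, the last step of serine synthesis, gave -0.11, SHMT2, which makes glycine from serine in mitochondria, -0.11, and the glycine cleavage subunit AMT 0.25 near background. MTHFD1L, a mitochondrial folate enzyme, had an intensity of 1009, 932 and 895 on siSTAT3 arrays and 1162, 1214 and 1264 on siCon arrays. The groups lay apart, with a log2 change of -0.36 and an adjusted p of 0.115 by limma. Of the 18 tested cytosolic aminoacyl-tRNA synthetases, which load amino acids onto tRNAs, 0 passed by limma, with a median of 0.03. At an unadjusted p under 0.05, 2 were higher and 0 lower, where 12.1% of all tested genes had such a p. The 2 higher genes were MARS1 (0.32, adjusted p = 0.289) and GARS1 (0.27, adjusted p = 0.307), and EPRS1 gave 0.14 and QARS1 0.11. Without siCon replicate 3, MARS1 gave 0.21, GARS1 0.30, EPRS1 0.085 and QARS1 0.032.

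Of 17 tested amino acid transporters other than the members, 0 passed by limma, with a median of -0.05. At an unadjusted p under 0.05, 0 were higher and 1 lower, where 12.1% of all tested genes had such a p. SLC38A2 (SNAT2), a neutral amino acid importer that cells make more of when starved, had an intensity of 1519, 1486 and 1609.8 on siSTAT3 arrays and 1942, 1797 and 2402 on siCon arrays. The groups lay apart, with a log2 change of -0.40 and an adjusted p of 0.132 by limma. Without siCon replicate 3, its highest array, SLC38A2 gave -0.28. The arginine and lysine carrier SLC7A1 gave -0.18, and the glutamate carriers SLC1A1 and SLC1A3, near background, gave -0.21 and -0.23.

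Of 20 tested genes of the mTORC1 core and of amino acid sensing, the pathway on which DDIT4 and SESN2 act, 0 passed by limma. Their median was -0.01. At an unadjusted p under 0.05, 1 was higher and 2 lower, where 12.1% of all tested genes had such a p. RRAGD, a Rag GTPase that brings mTORC1 to the lysosome, had an intensity of 1300.3, 1379 and 1314 on siSTAT3 arrays and 982, 1138 and 831 on siCon arrays. Its groups lay apart, with a log2 change of 0.45 and an adjusted p of 0.0878 by limma. The lowest siCon array was replicate 3, the array that stood apart. With 1 array left out the change of RRAGD ranged from 0.33 to 0.56, with adjusted p-values of 0.0289 to 0.314 by limma. RHEB, the GTPase that activates mTORC1 and that TSC1-TSC2 holds off, had an intensity of 2983, 2901 and 3219 on siSTAT3 arrays and 3703, 3657 and 3897 on siCon arrays. RHEB also lay apart, in the other direction, with a log2 change of -0.31 and an adjusted p of 0.193 by limma. RRAGC gave -0.31, with overlapping groups, and DDIT4L, the paralogue of DDIT4, gave -0.26.

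**Figure D4:**
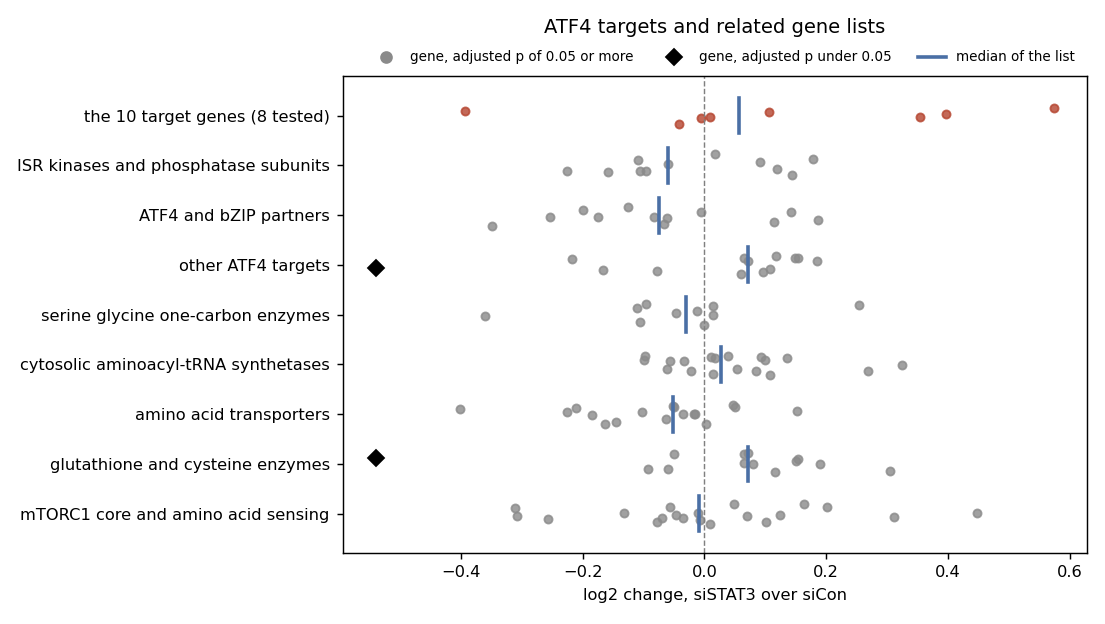
Log2 change of siSTAT3 over siCon (x axis) of each tested gene in the ATF4 target set and the related lists (rows), with the median of each list as a blue bar. The single gene past the threshold (black diamonds, shown in both of its lists) is CTH at -0.54, and the list medians lie between -0.07 and 0.07.

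The genes most like ASNS over the 6 arrays, by Pearson correlation of log2 intensity with its brighter probe, were H3-3A (r = 0.993), LETMD1 (0.991), DLGAP4 (0.987), GALNT16 (0.984) and TMEM107 (0.98), none of them from the lists above. These correlations over 6 arrays in 2 groups are a description, since any gene that differs between the groups shares that difference with ASNS. Each gene was read by its brightest probe, and the correlation of its other probes with ASNS was not computed. The log2 changes of the 5 genes ran from 0.11 for H3-3A to 0.60 for GALNT16. GALNT16, a glycosyltransferase, was the 1 that passed (adjusted p = 0.0146 by limma). The other probes of H3-3A, also bright, gave 0.05 and 0.04 with overlapping groups. Other probes gave 0.13 for LETMD1, -0.01 and -0.02 for DLGAP4, 0.11 for GALNT16 and 0.15 for TMEM107. GALNT16 lost its call with its probes averaged (0.0826) and without siSTAT3 replicate 1 (0.117), 2 (0.0855) or 3 (0.0763). Among the other members, PHGDH was most like ASNS (r = 0.809) and SLC7A11 was the most opposed (r = -0.907).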

How the data were processed

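Total RNA of SKOV3ip1 cells was copied into biotin-labelled cRNA for Illumina bead arrays read in 1 colour, per the labels' protocols, and group and replicate number were taken from sample titles. The authors deposited a table of unnormalised intensity per probe and another of processed intensity. The submitters' processing notes name BeadStudio. Whether background was subtracted is not stated in the sources used here, and no detection p-values were used. The processed columns shared 1 distribution with a median of 94.2 and kept the probe order of the unnormalised ones, so they are linear and quantile-normalised, and how that was done stays unknown.

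Unnormalised intensities were quantile-normalised, with no background subtracted, and taken to log2 in limma 3.58.1 (R 4.3.3). The platform annotation gave 28098 probes 1 symbol, 13 several and 20692 none. Symbols were updated through RefSeq (GRCh38.p14), 28059 by Entrez ID and 14 by accession. Probes above the 40th percentile (intensity 89.9) were kept, and the brightest probe stood for a gene. Groups were compared by lmFit and eBayes with two-sided p-values, adjusted by Benjamini-Hochberg over 14145 genes. The procedure was also run on simulated data with independent genes, 1 spread shared by all genes and no array that stood apart. That run cannot show how the fit behaves on these arrays, where siCon replicate 3 stood apart. Each member probe was also tested among 29282 probes. No pair of arrays was identical. The number of arrays limits the precision.

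The 10 genes, the related lists and the alternatives were chosen with earlier results of these data known. Named are STAT3, the 10 genes, ATF4, DDIT3, the 4 genes per list of lowest adjusted p and the 5 genes most correlated with ASNS, together with marker genes. Alternatives were median scaling, the processed table, no filter or one at the 60th percentile, averaged probes, array weights, eBayes with trend and robust options, the replicate number as a block, normexp with an offset of 50, and each array left out.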

Additional observations from a re-analysis of the deposited data

How the results depend on the processing

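None of the 8 tested genes of the set passed the threshold in 10 of the 15 alternatives. DDIT4 passed with median scaling, the replicate number as a block and array weights, which gave counts of 1, 1 and 2. The second gene with array weights was SLC7A11 (adjusted p = 0.0437 by limma). Over all 14141 to 14145 tested genes these 3 fits called 138, 283 and 437, where the main fit called 207. Leaving out 1 array gave counts of 0 to 1, DDIT4 passing without siCon replicate 3 and SLC7A11 without siCon replicate 2. Over all tested genes these fits called 407 and 209. Single probes of the set gave counts of 1 with median scaling, 1 with array weights and 1 with the replicate block, and 0 to 1 with an array left out. Whether the replicate numbers pair the arrays is not known. The deviations of same-numbered arrays correlated at 0.05, 0.18 and 0.07. Differently numbered arrays were not compared, so these values cannot settle it. With the replicate block DDIT4 had an adjusted p of 0.0249 by limma, and 283 genes were called in place of 207. Over all genes, array weights called 437, and leaving out 1 array gave 61 to 407, with 61 to 82 when a siSTAT3 array was left out and 407 without siCon replicate 3. The count of 1 among the related lists became 0 with median scaling, 0 with averaged probes and 2 with array weights (CTH and RRAGD). It was 0 to 1 with an array left out, the 1 without siCon replicate 2 being RRAGD in place of CTH. With averaged probes 186 of all tested genes were called. The median log2 change of the 8 genes ranged over 0.017 to 0.12 with an array left out and over 0.06 to 0.11 in the other settings. Values near 0 turned sign. TRIB3 gave -0.0083 with array weights, and PSAT1 gave 0.038 with median scaling and 0.097 with array weights. With 1 array left out, TRIB3 ranged from -0.033 to 0.048, PSAT1 from -0.12 to 0.13 and DDIT3 from -0.29 to 0.11. The cause of these shifts was not tested. Median scaling moved the median of all genes to 0.03. CHAC1, SESN2 and the second PSAT1 probe lay near background, where a change would hardly show.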
